A study of Homo sapiens with 6 samples.

Results

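The genes described here are 10 regulators and subunits of the growth-controlling kinase complex mTORC1: the sestrins SESN1, SESN2 and SESN3, the stress proteins DDIT4 (also called REDD1) and DDIT4L, the inhibitory pair TSC1 and TSC2, and the mTOR complex proteins DEPTOR, RPTOR and MTOR. All probe sets annotated to 1 of these symbols alone were taken, which gave 20 of the 54675 probe sets and 10 of the 19775 genes that the array covers with a single-symbol probe set. SESN3 had 7 of them, SESN2, TSC2, DEPTOR and MTOR had 2 each, and the other 5 genes had 1 each. They were measured in DMS-53, an established human small cell lung cancer line, after 24 h in RPMI medium alone (control), in medium with 250 µM of the iron chelator desferrioxamine (DFO), or in medium with 25 µM of the thiosemicarbazone chelator Dp44mT. Each group had 2 Affymetrix U133 Plus 2.0 arrays, 1 from each of 2 numbered sets, so there were 6 arrays in all from a single cell line.

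mTORC1 is a kinase complex on the lysosome that promotes protein synthesis and growth when amino acids, growth factors and energy are sufficient. Sestrins hold it back through the GATOR proteins when leucine is scarce, DDIT4 and the TSC proteins hold it back by silencing the GTPase RHEB, and DEPTOR binds the mTOR kinase itself. SESN2 and DDIT4 are known stress genes: both are induced by the amino acid and endoplasmic reticulum stress factor ATF4, and DDIT4 also by the hypoxia-inducible factors, which iron chelation stabilizes because the enzymes that mark them for destruction need iron.

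Values are given as normalized log2 levels, log2(deposited intensity + 16) after quantile normalization of the 6 arrays, and changes are differences of group means on that scale. A probe set was tested if its mean level was at least 5.55, the 25th percentile of the array, and 40960 were. It was called changed at a limma adjusted p under 0.05, two-sided, with Benjamini-Hochberg adjustment over all 40960. Of the 20 probe sets, 17 were tested. SESN3 1553869_at, TSC2 215624_at and DEPTOR 234071_at lay below the limit, and each of the 10 genes kept at least 1 tested probe set. Levels of different probe sets cannot be set against each other, because each has its own hybridization strength.

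Median deposited intensity was 88.9 and 88.8 for control, 85.5 and 63.0 for DFO, and 83.6 and 49.9 for Dp44mT, so both set 2 chelator arrays were dimmer. As a check of the treatment, the hypoxia and iron-depletion gene NDRG1 rose by 2.11 with DFO (adjusted p = 0.0303, limma) and 2.02 with Dp44mT (adjusted p = 0.0251). The angiogenic factor VEGFA rose by 2.49 (adjusted p = 0.0177) and 2.33 (adjusted p = 0.0174). The transferrin receptor TFRC, whose mRNA is stabilized when iron is low, was 0.84 and 0.70 higher on its probe set with the highest mean, without passing (adjusted p = 0.2 and 0.127). Of its other tested probe sets, 237215_s_at rose by 1.28 with Dp44mT (adjusted p = 0.0483) and was 1.49 higher with DFO (adjusted p = 0.0546), 207332_s_at was 1.15 and 1.02 higher, and 240686_x_at was at −0.11 and −0.66. All 9 neuroendocrine markers on the array were tested, and their summed normalized level was 16862 and 19762 in control, 11110 and 11024 with DFO, and 9500 and 8564 with Dp44mT. Of these, INSM1 fell 10.3-fold with Dp44mT (adjusted p = 0.0154) and none passed with DFO. The 10 fibroblast markers on the array summed to 1666 and 889 in control, 1348 and 2987 with DFO and 1653 and 3471 with Dp44mT. Of these, 8 were tested and 0 called, and FAP and PDGFRB lay below the filter. This sum of normalized levels was lowest on control array 2 and highest on both set 2 chelator arrays. Summed deposited intensity was also lowest on control array 2, at 1109. The set 2 Dp44mT array, at 1918, then lay below control array 1, at 2027. On the normalized scale the 7 endothelial markers on the array, of which 5 were tested, ran the same way. Their sum was 853 and 469 in control, 788 and 1803 with DFO, and 817 and 2228 with Dp44mT. None of the tested endothelial markers, of the 5 tested epithelial or of the 5 tested leukocyte markers was called. The leukocyte marker PTPRC lay below the filter. The part of these shifts in the changes below was not tested.

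Promoter sequence is shown for 3 of the genes, because the SESN2 and DDIT4 probe sets were the ones that passed the test and TSC2 held the most motif matches. Each window runs from 250 bases before to 50 bases after the transcription start, from RefSeq on GRCh38.p14, on the plus strand. The windows are SESN2 at chr1:28259268-28259567, DDIT4 at chr10:72273674-72273973 and TSC2, the first of its windows, at chr16:2047735-2048034. Capitals mark the bases covered by a match to any of 3 motifs searched on both strands: the hypoxia-response core ACGTG, the ATF4 and CHOP composite site TGATGNAAN and the antioxidant-response core TGACNNNGC.
SESN2: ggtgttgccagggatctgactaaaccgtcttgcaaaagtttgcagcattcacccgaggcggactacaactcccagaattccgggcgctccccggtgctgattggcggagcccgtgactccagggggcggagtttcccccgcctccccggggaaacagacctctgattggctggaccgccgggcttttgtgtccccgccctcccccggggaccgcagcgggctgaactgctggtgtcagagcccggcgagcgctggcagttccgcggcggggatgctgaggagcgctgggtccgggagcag
DDIT4: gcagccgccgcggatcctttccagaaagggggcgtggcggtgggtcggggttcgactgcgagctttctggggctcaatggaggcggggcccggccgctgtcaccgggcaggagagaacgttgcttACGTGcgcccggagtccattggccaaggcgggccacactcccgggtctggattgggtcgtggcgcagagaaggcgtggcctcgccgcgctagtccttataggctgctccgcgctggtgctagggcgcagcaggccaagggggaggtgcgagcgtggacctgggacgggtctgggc
TSC2: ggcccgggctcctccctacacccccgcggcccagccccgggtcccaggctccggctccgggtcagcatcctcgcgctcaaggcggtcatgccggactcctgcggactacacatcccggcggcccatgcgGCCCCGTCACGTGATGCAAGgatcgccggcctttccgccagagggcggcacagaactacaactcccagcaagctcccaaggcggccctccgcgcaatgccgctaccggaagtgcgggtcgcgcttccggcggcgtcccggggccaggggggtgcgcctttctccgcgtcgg
The DDIT4 window held 1 hypoxia-response core, at bases 126 to 130, and the SESN2 window held none of the 3 motifs. In TSC2 the core was present on both strands and overlapped a match to each of the other motifs, which together form the run in capitals. Of 12 windows matched for 9 of the 10 genes, 2 held the hypoxia-response core, against 21.4% of all 35116 windows of this length. The composite site was in 1 (3.61% of all windows) and the antioxidant-response core in 2, those of TSC2 and SESN1 (13.3% of all windows). A match describes letters in the window, not binding, and no binding was measured.

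SESN2 rose with both chelators on both of its probe sets. SESN2 encodes a leucine-binding protein that binds and inhibits the GATOR2 complex when leucine is low, which lowers mTORC1 activity, and lets it go when leucine is bound. On 223195_s_at the levels were 8.03 and 7.56 in control, 10.23 and 10.19 with DFO, and 10.66 and 10.76 with Dp44mT. On 223196_s_at they were 7.37 and 7.13 in control, 9.32 and 9.35 with DFO, and 9.89 and 9.92 with Dp44mT. All 4 chelator arrays lay above both control arrays on either probe set. The chelator arrays of a group differed by little, and most of the spread was between the control arrays.

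With DFO, SESN2 223195_s_at rose by 2.42 ± 0.23 (SE), or 5.34-fold (95% interval 1.84 to 2.99 on the log2 scale, limma adjusted p = 0.0258), and 223196_s_at by 2.08 ± 0.19, or 4.23-fold (1.60 to 2.56, adjusted p = 0.0246). With Dp44mT, 223195_s_at rose by 2.92 ± 0.23, or 7.56-fold (2.35 to 3.49, adjusted p = 0.0133), and 223196_s_at by 2.65 ± 0.19, or 6.28-fold (2.17 to 3.13, adjusted p = 0.011). The 2 probe sets gave like changes, and both measure the same gene, so they are not replicates of each other. Within set 1 the DFO difference on 223195_s_at was 2.21, and within set 2 it was 2.63. Within set 1 the Dp44mT difference was 2.64, and within set 2 it was 3.20. The DFO calls did not survive leaving out any 1 of the 6 arrays: the change on 223195_s_at stayed between 2.18 and 2.65 with adjusted p from 0.0685 to 0.371, and on 223196_s_at between 1.96 and 2.20 with adjusted p from 0.0685 to 0.424. The Dp44mT calls were lost without any 1 of the control or Dp44mT arrays (changes 2.69 to 3.15 and 2.53 to 2.77, adjusted p up to 0.258 and 0.268) and kept without either DFO array. On the deposited scale, with no scaling between arrays, neither chelator's call passed: the 223195_s_at change was 2.11 with DFO (adjusted p = 0.548) and 2.29 with Dp44mT (adjusted p = 0.127). With array medians subtracted, the DFO change was 2.34 on 223195_s_at (adjusted p = 0.0525) and 2.06 on 223196_s_at (adjusted p = 0.0674).

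SESN1, the sestrin known as a p53 target, had levels of 6.79 and 6.61 in control, 7.38 and 6.73 with DFO, and 7.45 and 7.17 with Dp44mT. The DFO arrays overlapped the control arrays, and the Dp44mT arrays lay above them. In deposited intensity the set 2 Dp44mT array, at 79.9, lay below both control arrays (114 and 96.9). The differences were 0.35 with DFO (95% interval −0.36 to 1.06, adjusted p = 0.712, limma) and 0.61 with Dp44mT (−0.11 to 1.32, adjusted p = 0.289), and neither passed.

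SESN3, the sestrin known as a FOXO target, was higher after normalization on all 6 tested probe sets with either chelator. None of the 12 differences passed. On 225123_at the levels were 7.54 and 7.65 in control, 8.13 and 7.93 with DFO, and 8.03 and 8.0 with Dp44mT. On 235683_at they were 6.41 and 6.43 in control, 7.80 and 7.15 with DFO, and 7.79 and 7.41 with Dp44mT. On both, as on the other 4 tested SESN3 probe sets, every chelator array lay above both control arrays on this scale. Deposited intensities of 225123_at were 210 and 230 in control, 357 and 173 with DFO, and 264 and 139 with Dp44mT. Before normalization its set 2 chelator arrays thus lay below both control arrays, as did those of 235150_at. Those of 235683_at, at 100 and 94.2, stayed above its control arrays (80.6 and 82.4). The smallest DFO difference was 0.23 (235150_at, adjusted p = 0.729, limma), and the largest was 1.06 (235683_at, 95% interval 0.34 to 1.78, 2.08-fold, adjusted p = 0.279). With Dp44mT the differences ran from 0.42 (225123_at, adjusted p = 0.283) to 1.19 (235683_at, 0.47 to 1.91, 2.28-fold, adjusted p = 0.108). The DFO difference on 235683_at was 1.39 in set 1 and 0.73 in set 2, each being 1 DFO array minus 1 control array. The untested SESN3 1553869_at was 0.25 higher with DFO and 0.52 higher with Dp44mT.

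DDIT4 had the largest change of the 20 probe sets with either chelator. DDIT4 encodes REDD1, which is induced by hypoxia, endoplasmic reticulum stress and glucocorticoids and lowers mTORC1 activity through TSC1 and TSC2. On its only probe set, 202887_s_at, the levels were 8.10 and 7.37 in control, 10.92 and 11.02 with DFO, and 10.95 and 11.08 with Dp44mT. All 4 chelator arrays lay above both control arrays, and the control arrays differed from each other by more than either chelator pair did. In deposited intensities these were 317 and 182 in control, 2602 and 1422 with DFO, and 2263 and 1172 with Dp44mT.

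DDIT4 rose by 3.23 ± 0.29 (SE) with DFO, or 9.41-fold (95% interval 2.52 to 3.95 on the log2 scale, limma adjusted p = 0.0213), and by 3.28 ± 0.29 with Dp44mT, or 9.73-fold (2.57 to 4.0, adjusted p = 0.0174). The set 1 differences were 2.82 with DFO and 2.85 with Dp44mT, and the set 2 differences were 3.65 and 3.71. As for SESN2, the DFO call was lost without any 1 array (2.87 to 3.60, adjusted p 0.0571 to 0.329), and the Dp44mT call without any 1 of the control or Dp44mT arrays (2.92 to 3.65 over all 6, adjusted p up to 0.248). With no scaling between arrays the changes were 2.92 (adjusted p = 0.174) and 2.68 (adjusted p = 0.0976), past no threshold.

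DDIT4L, also called REDD2, a related inhibitor of mTORC1 in muscle, did not pass with either chelator. Its levels were 5.65 and 5.99 in control, 6.17 and 5.58 with DFO, and 6.22 and 5.64 with Dp44mT. Both chelator groups overlapped the control arrays, and the difference was positive in set 1 and negative in set 2 for either chelator. The mean differences were 0.06 with DFO (95% interval −0.75 to 0.87, adjusted p = 0.961, limma) and 0.11 with Dp44mT (adjusted p = 0.842). These levels lay close to the filter limit of 5.55.

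**Figure D1:**
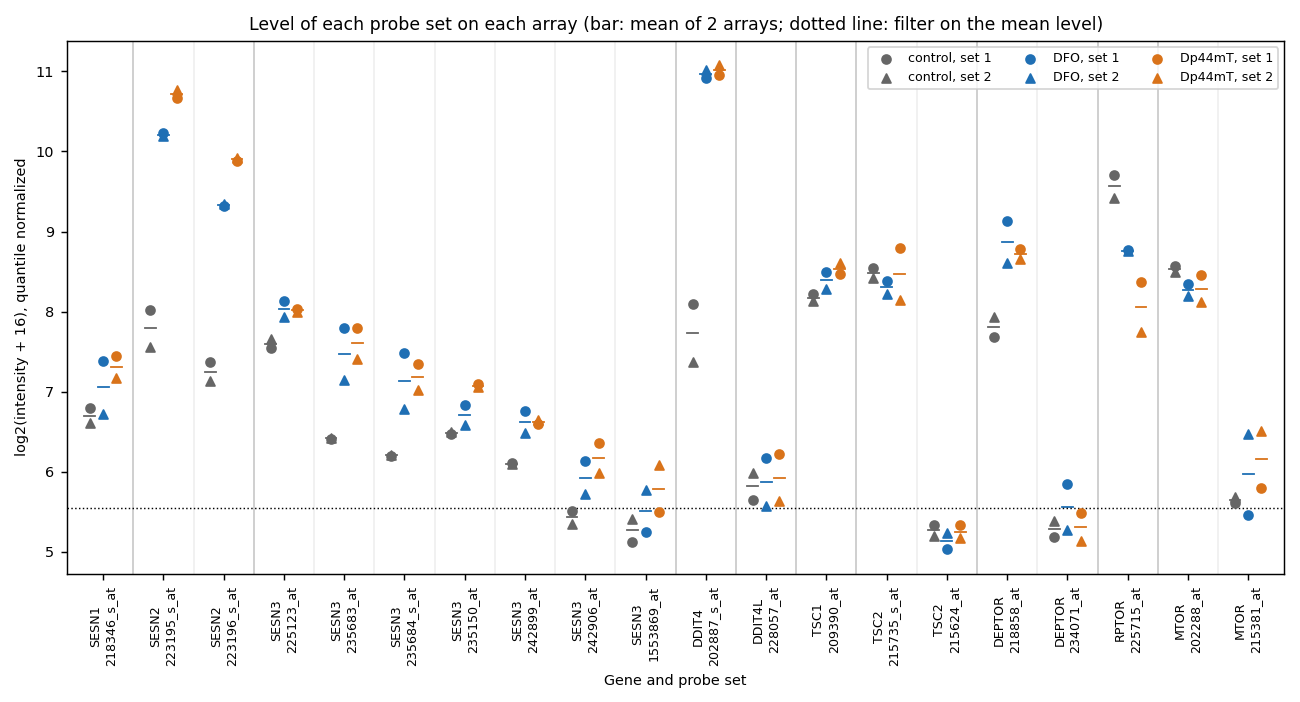
Normalized level, log2(intensity + 16), of all 20 probe sets on the 6 arrays, with circles for set 1, triangles for set 2 and a bar at the mean of each group of 2 arrays; the dotted line is the filter limit of 5.55. SESN2 and DDIT4 show both chelator groups far above control, RPTOR shows both below, and DEPTOR and SESN3 235683_at show both above, by less than SESN2 and DDIT4.

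TSC1 and TSC2 form the complex that turns RHEB off, the step at which DDIT4 acts. TSC1 209390_at had levels of 8.22 and 8.13 in control, 8.50 and 8.29 with DFO, and 8.47 and 8.60 with Dp44mT. Both chelator groups lay above control, by 0.22 with DFO (95% interval −0.27 to 0.70, adjusted p = 0.738, limma) and 0.36 with Dp44mT (−0.13 to 0.85, adjusted p = 0.338). In deposited intensity the set 2 chelator arrays of TSC1, at 221 and 208, lay below both control arrays (348 and 336). TSC2 215735_s_at had levels of 8.55 and 8.42 in control, 8.39 and 8.22 with DFO, and 8.79 and 8.15 with Dp44mT. The DFO arrays lay below control and the Dp44mT arrays on either side of it. The TSC2 differences were −0.18 (−0.86 to 0.49, adjusted p = 0.825) and −0.01 (−0.69 to 0.66, adjusted p = 0.978). Neither gene passed, and the intervals leave room for changes of about the size seen for SESN1.

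DEPTOR, an inhibitor that binds mTOR in both of its complexes, had levels on 218858_at of 7.69 and 7.93 in control, 9.14 and 8.61 with DFO, and 8.78 and 8.66 with Dp44mT. All 4 chelator arrays lay above both control arrays on this scale. Deposited intensities were 234 and 286 in control, 753 and 275 with DFO, and 460 and 216 with Dp44mT. Before normalization the set 2 DFO array thus lay between the control arrays, and the set 2 Dp44mT array below both. The difference was 1.06 ± 0.25 (SE) with DFO (95% interval 0.44 to 1.69, 2.09-fold, adjusted p = 0.222, limma) and 0.91 with Dp44mT (0.28 to 1.54, 1.88-fold, adjusted p = 0.133). Both intervals exclude 0, and neither difference passed after adjustment over all probe sets. The DFO difference was 1.45 in set 1 and 0.68 in set 2.

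RPTOR, the scaffold that brings substrates to mTORC1, was the only one of the 10 genes with a lower level on every chelator array whose interval excluded 0. On 225715_at the levels were 9.70 and 9.42 in control, 8.77 and 8.75 with DFO, and 8.37 and 7.75 with Dp44mT. Every chelator array lay below both control arrays, and both Dp44mT arrays lay below both DFO arrays. The difference was −0.80 ± 0.27 (SE) with DFO (95% interval −1.48 to −0.12, 1.74-fold lower, adjusted p = 0.378, limma) and −1.50 with Dp44mT (−2.18 to −0.82, 2.83-fold lower, adjusted p = 0.0675). The Dp44mT difference passed with pseudocount 64 (−1.34, adjusted p = 0.0418) and with the filter at the median level (adjusted p = 0.0491). It passed in no setting that left out a single array.

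MTOR, the kinase itself, had levels on 202288_at of 8.58 and 8.50 in control, 8.35 and 8.20 with DFO, and 8.46 and 8.12 with Dp44mT. All chelator arrays lay below both control arrays. The differences were −0.27 (95% interval −0.79 to 0.26, adjusted p = 0.71, limma) and −0.25 (−0.78 to 0.28, adjusted p = 0.478). The dimmer probe set 215381_at went the other way, with differences of 0.32 (adjusted p = 0.8) and 0.51 (adjusted p = 0.463), and its set 2 chelator arrays stood above the rest. The MTOR probe sets therefore disagree in sign, and neither passed with either chelator.

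Counted over the 17 tested probe sets, 3 were called higher with DFO (2 of SESN2 and 1 of DDIT4) and 0 lower, where 0.569% of all tested probe sets were called higher and 0.0195% lower. With Dp44mT the same 3 were called higher and 0 lower, against 1.07% higher and 0.564% lower. At an unadjusted p under 0.05, 7 were higher and 1 lower with DFO, against 5.09% higher and 5.97% lower among all tested probe sets. With Dp44mT, 9 were higher and 1 lower, against 6.99% and 14.5%. With DFO, 11 had both arrays above both control arrays and 3 had both below, against 17.0% above and 27.8% below among all tested probe sets. With Dp44mT, 13 lay above and 2 below, against 28.5% above and 32.8% below. SESN3 supplies 6 of the 11 and of the 13, and these probe sets measure the same gene. SESN3 and SESN2 likewise supply most of the 7 and of the 9 at an unadjusted p under 0.05. The median difference over the 17 was 0.43 with DFO and 0.59 with Dp44mT, beside −0.04 and 0.01 over all tested probe sets. Both medians fall on SESN3 probe sets. Taking only the probe set with the highest mean of each of the 10 genes, the median was 0.28 and 0.39, beside −0.03 and 0.03 over all genes. The chelators share the control arrays, so counts for one do not stand apart from the other. The 10 genes were chosen with earlier results of these data known, so these counts are a description, not independent support.

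**Figure D2:**
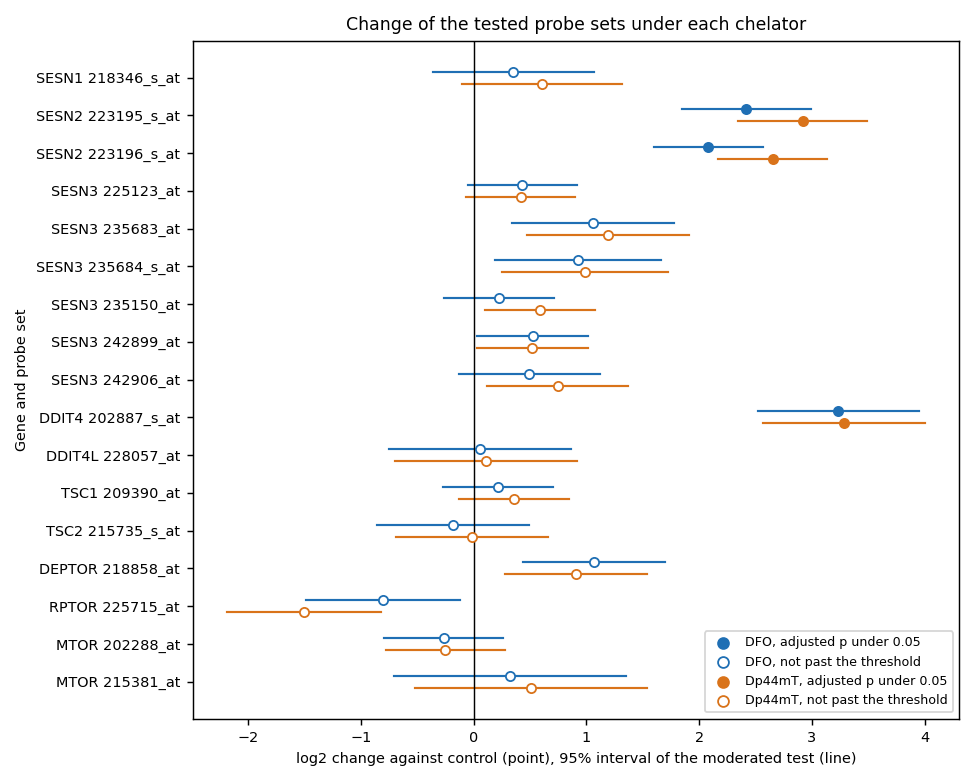
Difference from control on the log2 scale (point) with the 95% interval of limma's moderated test (line) for the 17 tested probe sets, DFO in blue and Dp44mT in orange, filled where the adjusted p was under 0.05. The filled points are those of SESN2 and DDIT4, and DEPTOR, RPTOR and several SESN3 probe sets have intervals off 0 with open points.

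**Figure D3:**
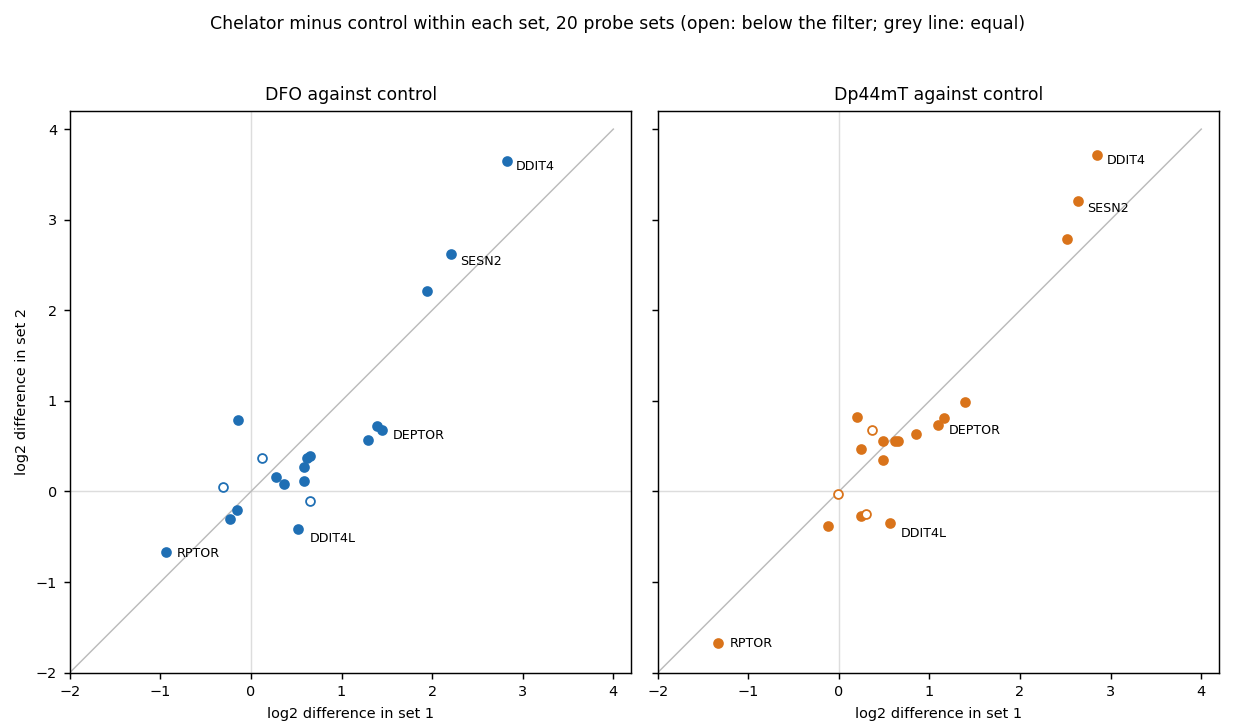
Chelator minus control within set 1 (x axis) and within set 2 (y axis), in log2 units, for the 20 probe sets, with open points below the filter and a grey line of equal values. SESN2 and DDIT4 differed more in set 2, DEPTOR more in set 1, and DDIT4L took opposite signs in the 2 sets.

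The chelators were compared with each other at the doses used, 250 µM DFO and 25 µM Dp44mT, which are not matched. No probe set of the 40960 was called (0.00%), and 1348 had an unadjusted limma p under 0.05. That is a smaller share than the 0.05 that this limit would give with no difference at all. SESN2 was higher with Dp44mT than with DFO by 0.50 on 223195_s_at (95% interval −0.07 to 1.07) and by 0.57 on 223196_s_at (0.09 to 1.05), with an adjusted limma p of 0.969 for both. Both Dp44mT arrays lay above both DFO arrays on either probe set. How often arrays lie apart in this way among all tested probe sets was not counted for this comparison. RPTOR was lower with Dp44mT by −0.70 (−1.38 to −0.02, adjusted p = 0.969), by −0.40 in set 1 and −1.0 in set 2. For DDIT4 the difference was 0.05 (−0.67 to 0.76, adjusted p = 0.986), an interval that leaves room for a difference as large as that of SESN2.

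The other genes of the pathway were taken from lists sorted by role, with 98 genes listed, 91 of them on the array under a single symbol, and each gene shown by whichever of its probe sets had the highest mean. Of the 79 tested genes outside the 10, 5 were called higher with DFO and 0 lower, where 0.753% of all 16869 genes were called higher and 0.0415% lower. With Dp44mT, 8 were called higher and 0 lower, against 1.36% and 0.700% of all genes. Their median difference was 0.05 with DFO and 0.11 with Dp44mT, against −0.03 and 0.03 over all genes.

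Most of these calls fell among the genes listed as regulators of sestrin and REDD1 transcription, 11 of which were tested. The lists were written with earlier results of these data known. The counts and their place among the lists are therefore a description, not independent support. ATF3, a stress-induced transcription factor, had levels of 8.62 and 8.11 in control, 12.82 and 12.70 with DFO, and 13.01 and 12.95 with Dp44mT, and rose 21.1-fold with DFO (adjusted p = 0.0151, limma) and 24.6-fold with Dp44mT (adjusted p = 0.00975). DDIT3, which encodes the stress factor CHOP, had levels of 8.53 and 8.24 in control, 11.41 and 11.56 with DFO, and 11.91 and 11.99 with Dp44mT, and rose 8.56-fold (adjusted p = 0.0151) and 11.8-fold (adjusted p = 0.00975). EPAS1, which encodes HIF-2 alpha, rose 3.99-fold (adjusted p = 0.0497) and 3.41-fold (adjusted p = 0.0414), and both calls were lost with array medians subtracted (adjusted p = 0.0871 and 0.0877) and with pseudocount 1 (0.0736 and 0.0588), the DFO call also with no filter (0.0609). EPAS1 200879_s_at was 1.41 and 1.14 higher on the log2 scale without passing (adjusted p = 0.0526 and 0.0541). The untested EPAS1 241055_at was lower, at −0.77 and −0.97. NR3C1, the glucocorticoid receptor, rose 3.0-fold with Dp44mT (adjusted p = 0.0344) and was 1.34 higher on the log2 scale with DFO without passing (adjusted p = 0.0782). The NR3C1 call was lost with array medians subtracted (adjusted p = 0.164) and with pseudocount 1 (0.0532). Of its other probe sets, 211671_s_at passed with Dp44mT (adjusted p = 0.0413). NR3C1 201866_s_at, 232431_at and 216321_s_at were higher without passing (0.0698, 0.0887 and 0.21). CEBPB, a partner of CHOP, rose 2.71-fold with Dp44mT (adjusted p = 0.0472) and is named after its value was seen; the call was lost with array medians subtracted (0.164), with pseudocount 1 (0.0679) and with no filter (0.0566). The mRNA of ATF4 itself did not pass, at 0.32 with DFO (adjusted p = 0.612) and 0.53 with Dp44mT (adjusted p = 0.185), and HIF1A differed by 0.13 and −0.08. In this list 3 genes rose with DFO and 5 with Dp44mT, and the list median was 0.84 and 1.04.

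Calls outside the regulators came from 3 genes. TRIB3, a pseudokinase that binds AKT, was the only call among 9 tested genes of the PI3K and AKT input, with levels of 9.27 and 9.13 in control, 10.93 and 10.75 with DFO, and 12.01 and 11.87 with Dp44mT. It rose 3.12-fold with DFO (adjusted p = 0.045, limma) and 6.69-fold with Dp44mT (adjusted p = 0.011). The TRIB3 DFO call was lost with array medians subtracted (adjusted p = 0.258), with pseudocount 1 (0.0713) and with no filter (0.0561), and 1555788_a_at did not pass with DFO (2.30-fold, adjusted p = 0.0897). GRB10, an adaptor that mTORC1 phosphorylates and that dampens insulin signalling, had levels of 7.70 and 7.60 in control, 9.68 and 9.48 with DFO, and 10.38 and 10.44 with Dp44mT, and rose 3.81-fold (adjusted p = 0.0295) and 6.77-fold (adjusted p = 0.0107). The GRB10 DFO call was lost with array medians subtracted (adjusted p = 0.119), and none of its other 3 probe sets passed with DFO (1.79- to 3.91-fold, adjusted p = 0.0523 to 0.346). LPIN1, an mTORC1 substrate in lipid synthesis, rose 2.76-fold with Dp44mT (adjusted p = 0.0369) and was 1.17 higher with DFO without passing (adjusted p = 0.0958). The LPIN1 call was lost with array medians subtracted (adjusted p = 0.155) and with pseudocount 1 (0.0537), and its other 2 probe sets did not pass with Dp44mT (adjusted p = 0.111 and 0.312). These were the calls among 15 tested mTORC1 substrates. With no scaling between arrays, ATF3 was the only one of the 8 called list genes to pass. With 1 array left out, ATF3 and DDIT3 passed in 2 of 6 settings with either chelator, TRIB3 and GRB10 in 2 of 6 with Dp44mT and 0 with DFO, and EPAS1, NR3C1, CEBPB and LPIN1 in 0 of 6 with either.

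No gene passed among the 5 tested genes of the TSC complex and RHEB, the 11 mTOR complex subunits, the 8 Rag GTPase and Ragulator genes, the 10 GATOR and KICSTOR genes, the 7 amino acid sensor and folliculin genes or the 8 AMPK and LKB1 genes. List medians ran from −0.17 to 0.14 with DFO and from −0.37 to 0.45 with Dp44mT. From each of these lists the gene outside the 10 with the smallest p was named, since RPTOR, which had a smaller p among the mTOR complex subunits, is described above. With Dp44mT, TBC1D7, a subunit of the TSC complex, was at −0.87 (adjusted p = 0.0857, limma). MAPKAP1, a subunit of mTORC2, was at −1.05 (adjusted p = 0.0861), and RRAGA, a Rag GTPase, at −0.81 (adjusted p = 0.112). SLC38A9, a lysosomal arginine sensor, was at −1.76 (adjusted p = 0.113). PRKAA2, a catalytic subunit of AMPK, was 1.08 higher with DFO (adjusted p = 0.153) and 0.78 higher with Dp44mT (adjusted p = 0.131), and of its other 4 probe sets, 4 had that sign with DFO and 3 with Dp44mT, 238441_at being at −0.24. KICS2, a KICSTOR subunit that anchors GATOR1 to the lysosome, had deposited intensities of 3805 and 6359 in control, 225 and 456 with DFO, and 186 and 577 with Dp44mT. All its chelator arrays lay far below both control arrays. Its difference was −3.59 with DFO (adjusted p = 0.272) and −3.23 with Dp44mT (adjusted p = 0.148), and its other probe sets were lower too, at −1.79 and −1.85 with DFO and −2.32 and −2.19 with Dp44mT. With no scaling between arrays, KICS2 passed with both chelators (adjusted p = 0.049 and 0.043). That setting also moved the median of all probe sets by −0.30 and −0.46. KICS2 did not pass with array medians subtracted (adjusted p = 0.13 and 0.073) or with pseudocount 1 (0.334 and 0.175). With set number as a block in the fit, it passed with Dp44mT (0.0468) and not with DFO (0.074).

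**Figure D4:**
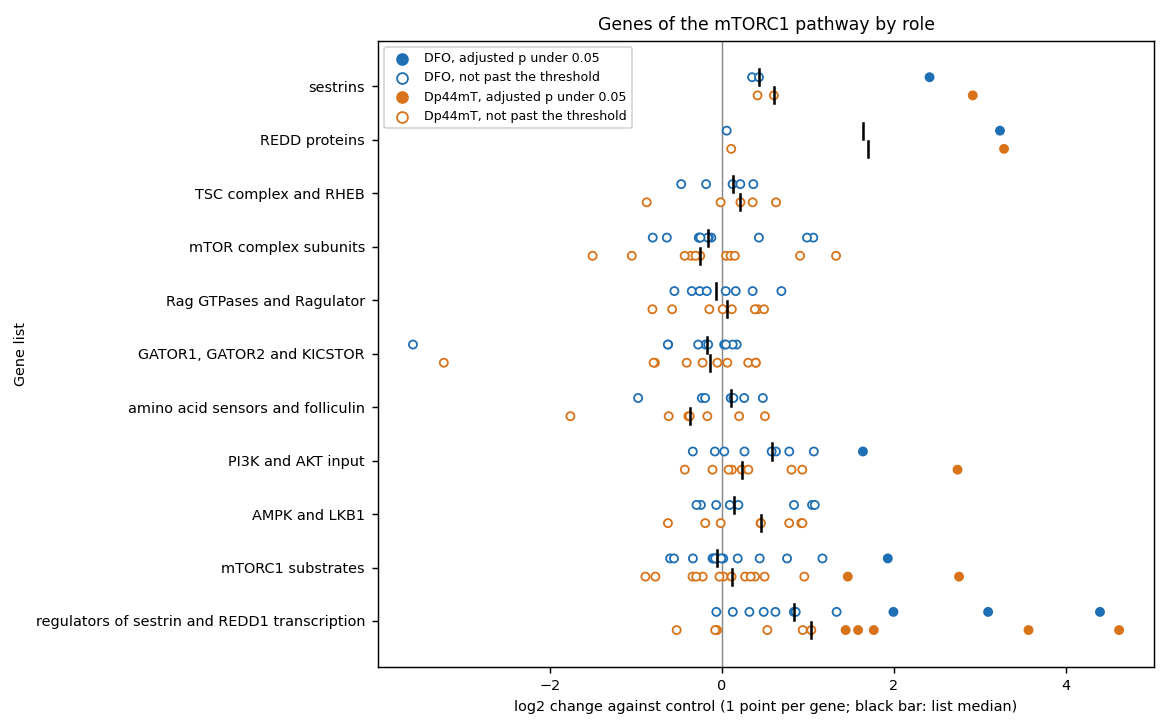
Difference from control on the log2 scale, 1 point per tested gene, for 11 role-based gene lists that include the 10 genes, with filled points at an adjusted p under 0.05 and a black bar at each list median. Filled points lie among the sestrins, REDD proteins, PI3K and AKT input, mTORC1 substrates and transcription regulators, all to the right of 0, and the far left point of the GATOR and KICSTOR list is KICS2.

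The genes with the pattern closest to SESN2 223195_s_at, by root mean square difference over the 6 arrays of log2 levels centred on the control mean, were BACH2 (0.0755), TRIB1 (0.156), NFIL3 (0.172), HEY1 (0.182) and HERPUD1 (0.193), among 16868 genes compared. BACH2, a transcriptional repressor, was 2.48 higher with DFO and 2.96 with Dp44mT, beside 2.42 and 2.92 for SESN2. For DDIT4 the closest were DUSP5 (0.199), P4HA1 (0.213), DDIT3 (0.223), CREB5 (0.224) and KDM3A (0.236). P4HA1, a collagen prolyl hydroxylase, and KDM3A, a histone demethylase, are known hypoxia-inducible genes, and DDIT3 is the stress factor named above. No such role is given here for DUSP5, the closest, or for CREB5. The dimmer P4HA1 243335_at differed little, by 0.17 with DFO and 0.10 with Dp44mT. The dimmer KDM3A 242758_x_at was 1.21 and 1.03 higher without passing. The likeness is a description over 6 arrays that share their control arrays.

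**Figure D5:**
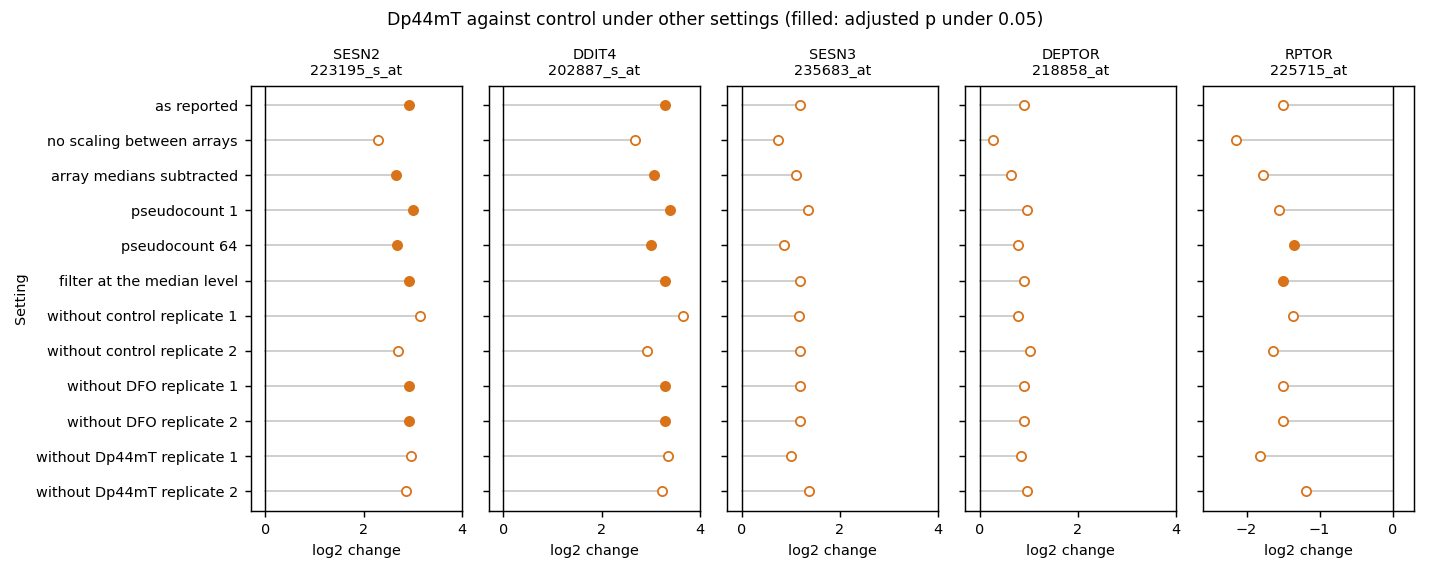
Log2 difference between Dp44mT and control for 5 probe sets under the reported and 11 other settings, with filled points at an adjusted p under 0.05. SESN2 and DDIT4 kept sizes above 2 throughout and lost the call without a control or Dp44mT array and with no scaling; RPTOR gained it with pseudocount 64 and with the filter at the median level.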

How the data were processed

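Total RNA of DMS-53 cells was hybridized to 6 Affymetrix arrays. The deposited table holds linear intensity values per probe set. The submitters' processing notes name Affymetrix Expression Console 1.1; summarization and normalization are not given in the sources used here. The arrays were not on a common scale, so log2(intensity + 16) was quantile normalized over all 6 (R 4.3.3, limma 3.58.1). Array names were mapped to groups through the sample titles, and their set numbers gave the replicate numbers. The labels do not say whether the sets are separate cultures, and a p-value here reflects no more than the spread of these arrays, which may be technical.

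Gene symbols came from GEO's platform annotation, which gives 1 symbol for 41097 probe sets, several for 1801 and none for 11777. No probe set with several symbols held any of the 10 genes. The 62 Affymetrix control probe sets were left out of the tests. limma's moderated test was fitted to all 3 groups and 40960 probe sets, with 3 residual and 2.53 prior degrees of freedom. The median half-width of a 95% interval was 0.68 on the log2 scale, and 2 arrays per group limit the precision. With 2 arrays in each group, the smallest two-sided p of an exact permutation is 0.333, so none was run. The procedure was run on simulated data with independent noise on every array. That run does not cover arrays that deviate together, as the chelator arrays of a set do here.

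The 10 genes, the lists, the scale and the marker lists were chosen with earlier results of these data known. Of each pathway list, the genes named were those called with either chelator, up to 4 by size of change, or otherwise the gene with the smallest p, leaving out the 10 genes themselves. For SESN2 and DDIT4, the 5 closest genes were named. Alternatives were other scalings, pseudocounts and filters, 1 probe set per gene, the replicate block, and leaving out arrays. Promoters are from RefSeq (GRCh38.p14).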

Additional observations from a re-analysis of the deposited data

How the results depend on the processing

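The array number limits every call: 792 differences of the 20 probe sets were recomputed over the alternatives, and 742 kept their sign. Many could not change sign. The filters, 1 probe set per gene and the replicate block leave a difference as it was. So does leaving out an array of the group outside the comparison. No scaling between arrays gave 13 of the 50 sign changes, the most of any setting. The 50 that changed sign passed in neither setting. As reported, DFO had 241 calls among all tested probe sets, split 233 up and 8 down, and Dp44mT had 670, split 439 up and 231 down. They became 31 (24 and 7) and 39 (15 and 24) with no scaling, which also moved the median of all probe sets by −0.30 and −0.46. They became 144 (133 and 11) and 363 (183 and 180) with array medians subtracted, and 156 and 342 with pseudocount 1. They became 437 and 1433 with pseudocount 64, and 392 and 1115 with the filter at the median level. Leaving out 1 array gave 0 to 57 for DFO and 0 to 469 for Dp44mT. Of the 3 called probe sets of the 10 genes, 0 passed for either chelator with no scaling, and 1 passed for DFO with medians subtracted. Leaving out 1 array gave 0 for DFO and 0 to 3 for Dp44mT; the lone array of that group was assumed to vary like the other groups. Without both set 2 chelator arrays, each chelator had 1 array and the spread came from the control pair alone (1 residual degree of freedom), so the counts of 367 and 3187, with 3 and 6 of the 17, support no call.

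With the replicate block, DFO had 208 calls and Dp44mT 1245, with 3 and 4 of the 17, the fourth being RPTOR (adjusted p = 0.0484), and TRIB3 and EPAS1 lost their DFO calls (0.0537 and 0.0693). The set numbers were not treated as pairs: with 2 numbers, deviations from the group mean correlated at −0.23 and −0.33 between control and each chelator and at 0.83 between the chelators. A crossed pairing of the control arrays, added after seeing the data, gave 809 and 5791 calls, with 3 and 7 of the 17. Dp44mT against DFO had 0 calls in every setting. The cause of these moves was not tested.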
